A study of Mus musculus with 4 samples.

Results

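Of the 46517 genes in the deposited read table, 15821 had an exon length of 0, and 31 of these were T cell receptor rows and were set aside. The remaining 15790 genes, listed with a start and an end but with 0 exons and 0 transcripts, are described here. They were measured in RNA-seq libraries of thymic invariant natural killer T (iNKT) cells from C57BL/6J mice, T cells whose semi-invariant receptor recognises lipids on CD1d. The sort took stage 1 cells, which lack CD24 and also NK1.1 and T-bet. There were 2 libraries labelled Control, with the genotype given as Prmt5 flox/D or as Prmt5 flox/+ with Cd4-Cre and not assigned to either library. The other 2 libraries were labelled Prmt5 KO, with the genotype Prmt5 flox/D Cd4-Cre, where Cre is driven by the Cd4 promoter in developing T cells. PRMT5 is the arginine methyltransferase that places symmetric dimethyl marks on proteins, among them the Sm proteins of small nuclear RNPs. The labels name no mouse for any library, so a p-value here reflects only how much the libraries vary, and that variation may be technical.

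Genes without an annotated exon structure are a mixed group. Processed pseudogenes are reverse-transcribed copies of messenger RNAs put back into the genome without introns, and many of them copy ribosomal protein genes, so that a short read can match the gene and several copies equally well. Other rows are the templates of ribosomal RNA, of microRNAs, of small nucleolar RNAs that guide modification of other RNAs, and of transcripts known only by a clone or model number (Rik, Gm). The cDNA kit of this study primes on poly(A) tails, which mature microRNAs and most other small RNAs lack.

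The depth in total gene reads was 5950563 for Control 1, 4995408 for Control 2, 14681519 for Prmt5 KO 1 and 5889753 for Prmt5 KO 2. Unique gene reads, those placed at a single position, made up 82.6% to 86.5% of them. Prmt5 KO 1 was the deepest library. Prmt5 itself had 555 and 427 total reads in the Control libraries, against 1290 and 639 in those labelled Prmt5 KO (a log2 fold change of 0.03 ± 0.33 SE, with adjusted p = 0.992 in edgeR's quasi-likelihood test over all genes). The part of the gene removed by the allele is not named in the sources used here, so this count does not check the labels, and directions below follow the labels. All 6 iNKT and T cell markers had reads, summing to 3141 to 3920 CPM (reads per 1000000 reads of the library, scaled by TMM for library composition unless given as unscaled), while the 3 B cell markers summed to at most 1.02 CPM and the 3 erythroid markers to at most 0.90 CPM. Among the iNKT and T cell markers, Cd3e, Thy1 and Lck were lower in both Prmt5 KO libraries, Zbtb16 and Cd4 were higher in both, and Cd3g overlapped. Cd3e had 842 and 755 CPM in Control against 287 and 563 in Prmt5 KO, and Zbtb16 had 241 and 215 against 453 and 309. The 3 myeloid markers summed to 2.38 and 0.87 CPM in Control against 12.9 and 6.996 CPM in Prmt5 KO. Itgam had 1.70 and 0.22 CPM in Control against 12.7 and 6.996 CPM in Prmt5 KO. Csf1r went the other way, at 0.68 and 0.65 against 0.18 and 0 CPM, and Lyz2 had 0 reads. The 2 thymic epithelial markers summed to 2.89 and 0 CPM in Control against 4.90 and 7.35 CPM in Prmt5 KO. The part of these markers in the differences given below was not tested, and in bulk RNA fewer cells of a type and less RNA per cell cannot be told apart.

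Sequences of 3 of these genes are shown beside the protein-coding gene each resembles, because that likeness sets how their reads could be placed. Each is a window of 60 bases from the GENCODE M21 transcripts (GRCm38), inside the coding part of the protein-coding gene, and capitals mark the bases that differ within the pair. Mrpl23-ps1 and Mrpl23, which encodes a protein of the mitochondrial ribosome, were identical over an alignment of 540 bases, so the window has no capitals.
Mrpl23-ps1: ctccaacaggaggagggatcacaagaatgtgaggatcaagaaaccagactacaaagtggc
Mrpl23: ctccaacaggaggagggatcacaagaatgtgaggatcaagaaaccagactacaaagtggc
Eif4a-ps4, a copy of the translation initiation factor gene Eif4a1, differed from it at 1 of 1218 aligned bases.
Eif4a-ps4: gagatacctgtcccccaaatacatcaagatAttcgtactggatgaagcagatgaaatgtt
Eif4a1: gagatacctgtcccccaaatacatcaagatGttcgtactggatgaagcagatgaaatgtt
Gm1966 and Gvin1, a very large interferon-inducible GTPase gene, shared 92.9% of 7294 aligned bases, with 508 mismatches.
Gm1966: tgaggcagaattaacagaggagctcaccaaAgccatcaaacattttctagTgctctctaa
Gvin1: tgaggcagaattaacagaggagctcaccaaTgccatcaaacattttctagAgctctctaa
Of the rows with a Mir symbol, Mir6236 was the 1 that reached 1 unscaled unique CPM in at least 2 libraries, and its mature sequence in RefSeq (GRCm38.p6) is given with its seed, bases 2 to 8, in capitals.
mmu-miR-6236: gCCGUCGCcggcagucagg

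Most of these genes had no read at this depth. No read of any kind was listed for 12567 of the 15790 genes, another 1183 had only reads shared with other positions, and 2040 had at least 1 unique read. A library without a read of a gene allows up to 3 reads, or 0.204 unscaled CPM in Prmt5 KO 1 and 0.504 to 0.601 unscaled CPM in the other libraries, for counting error only. At least 1 unscaled CPM of unique reads (unique CPM) in at least 2 libraries, called expressed from here on, was reached by 173 genes or 1.10%, beside 12370 of 30696 genes with an exon length, or 40.3%. The median span was 350 bases for the genes described and 11598 bases for the rest. Of 6098 genes of up to 200 bases 7 were expressed, of 6700 genes of over 200 and up to 1000 bases 78, and of 2992 longer genes 88. On chromosome Y lay 722 of the genes, and 18 of those had a unique read.

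**Figure D1:**
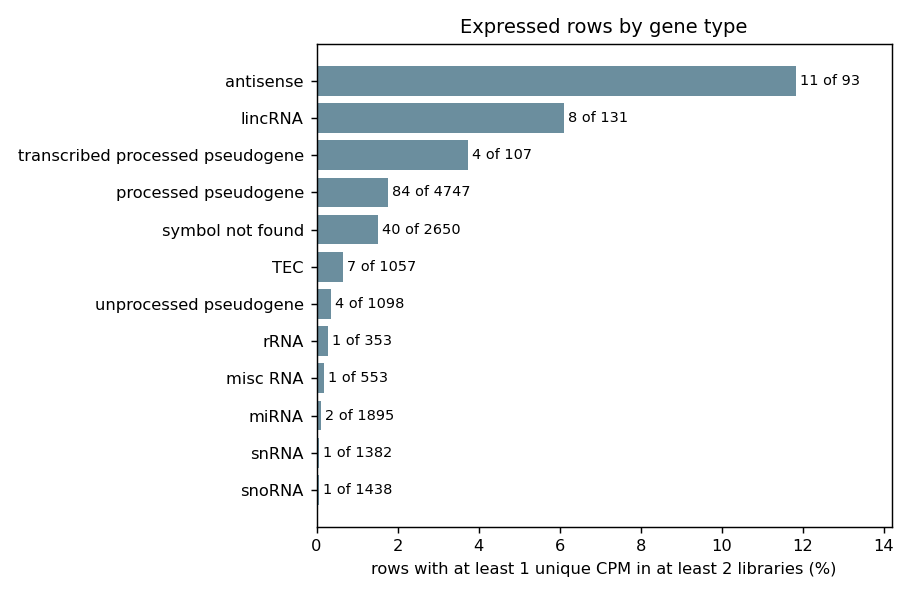
Percentage of genes without exon length that had at least 1 unscaled unique CPM in at least 2 of 4 libraries (horizontal axis), by GENCODE M21 gene type (vertical axis), for types with an expressed gene among at least 50; labels give the counts. Antisense genes lead with 11 of 93, and microRNA, small nuclear and small nucleolar RNA genes stand near 0.

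By GENCODE type, which 13140 of the genes could be given through their symbol, antisense genes were most often expressed among types of at least 50 genes, 11 of 93, followed by intergenic long non-coding RNAs, 8 of 131. Processed pseudogenes gave the largest number, 84 of 4747. Few small RNA genes were expressed: 2 of 1895 microRNA genes, 1 of 1438 small nucleolar RNA genes and 1 of 1382 small nuclear RNA genes were expressed. By symbol, the expressed genes comprised 95 of 10738 Gm genes, 16 of 837 genes ending in -ps, 15 of 236 Rik genes, 1 of 1058 Mir genes, 1 of 131 Snor and Scarna genes, 1 of 181 n-R genes, 1 of 22 tRNA genes, 2 of 27 other small RNA genes and 3 of the other 4 ribosomal RNA genes. Of 34 immunoglobulin segments, none had a read in these 4 libraries. By GENCODE type, 29 of them were V segment pseudogenes and 3 were D segment pseudogenes, and none was typed as a functional segment. The remaining 38 expressed genes had other symbols, of 2522. Of all 15790 genes, 6873 overlapped a gene with an exon length, and of the 173 expressed ones 20 did. The strand setting of the authors' counting is not given in the sources used here, so reads of those 20 and of the overlapped gene cannot be told apart.

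Ribosomal RNA made up most reads of the group. All 15790 genes together held 1.31% and 1.77% of total gene reads in Control against 0.863% and 1.83% in Prmt5 KO. Prmt5 KO 1 was lowest and Prmt5 KO 2 highest, so the groups overlapped. The single gene Rn18s-rs5, an 18S-type ribosomal RNA sequence, held 65.4% and 61.6% of the group's unique reads in Control against 45.4% and 64.9% in Prmt5 KO. The top 3 genes held 80.8% to 91.2%.

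**Figure D2:**
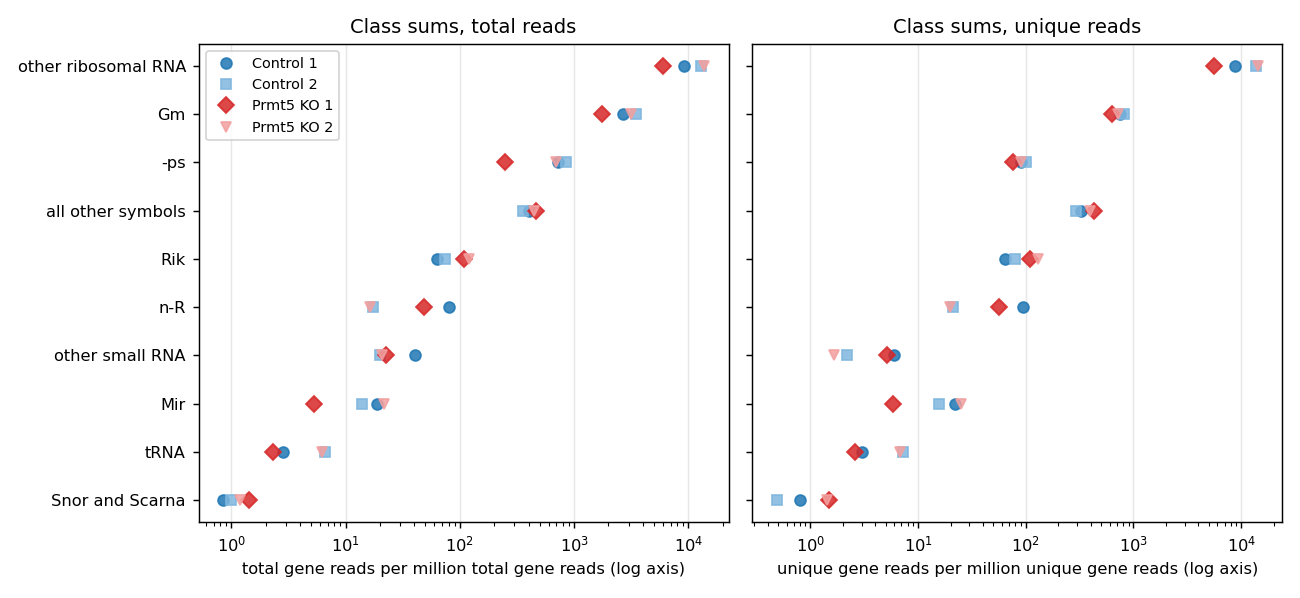
Reads summed over each symbol class as unscaled CPM (horizontal log axis), for total gene reads on the left and unique gene reads on the right; each point is 1 of 2 Control or 2 Prmt5 KO libraries and immunoglobulin segments, at 0, are left out. In total reads the -ps sum stands apart in Prmt5 KO 1 at 246 unscaled CPM, while its unique sum differs little between libraries.

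Summed over a class, 3 of the larger classes separated the groups in total reads. The -ps genes, pseudogenes by name, had 720 and 854 unscaled CPM in Control against 246 and 688 in Prmt5 KO, both lower, with Prmt5 KO 1 far below the other 3 libraries. The difference of means was -320 unscaled CPM, without Prmt5 KO 1 it was -99.2, without Prmt5 KO 2 it was -541, and without the -ps gene with the most reads, Rpl10a-ps1, it was -134. Counted in unique reads they had 90.6 and 101 unscaled CPM in Control against 76.0 and 90.3 in Prmt5 KO, where the groups stood apart by less than 1 unscaled CPM. The Rik genes had 63.0 and 74.5 unscaled CPM in Control against 108 and 121 in Prmt5 KO, both higher, a difference of means of 46.0 against an SD of 8.10 in Control and 9.41 in Prmt5 KO. Genes with other symbols had 400 and 357 unscaled CPM in Control against 466 and 443 in Prmt5 KO, again both higher. A single gene, Inafm2, carried most of this difference of 76.2 unscaled CPM: without it the difference was 20.6 and the groups overlapped, at 325 and 276 against 333 and 310. With 2 libraries a group the exact two-sided permutation test cannot go below p = 0.333, which each of the 3 sums over all genes of a class reached. Gm genes had 2661 and 3491 unscaled CPM in Control against 1743 and 3163 in Prmt5 KO, which overlapped. In unique reads Gm genes had 742 and 824 unscaled CPM in Control against 638 and 724 in Prmt5 KO, both lower. Without Gm8995 those unique sums overlapped, at 621 and 740 against 544 and 640. The 131 Snor and Scarna genes together had 0.84 and 1.00 unscaled CPM in Control against 1.43 and 1.19 in Prmt5 KO, of which Snord22, a box C/D small nucleolar RNA, held 0 and 1 reads in Control against 16 and 5 in Prmt5 KO. The other 130 genes together had only 5 and 4 total reads in Control against 5 and 2 in Prmt5 KO. Scaled to depth they went the other way, with 0.84 and 0.80 unscaled CPM against 0.34 and 0.34, a difference of -0.48. In unique reads these 130 genes overlapped between groups, at 0.79 and 0.24 unscaled CPM in Control against 0.24 and 0.41 in Prmt5 KO. Ribosomal RNA genes outside the n-R class had 9122 and 12865 unscaled CPM in Control against 5989 and 13835 in Prmt5 KO, with Prmt5 KO 1 lowest.

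Within the ribosomal RNA genes the libraries differed more than the groups. Rn18s-rs5 (chromosome 17, 39846353 to 39848201 on mm10, as all coordinates here) had 43576 and 46129 total reads in Control against 56933 and 61130 in Prmt5 KO, or 7410 and 10020 CPM against 3404 and 10965 CPM. The lowest and the highest library were both Prmt5 KO. Yam1_1, which overlaps Rn18s-rs5 on the same chromosome (39846958 to 39848788), did not follow it: it stood at 126 and 48.0 CPM in Control against 81.3 and 48.1 CPM in Prmt5 KO. n-R5-8s1, a gene for the small ribosomal RNA of the large cytosolic subunit and the only n-R gene of 181 with a read, had 80.8 and 18.9 CPM in Control against 42.4 and 17.4 CPM in Prmt5 KO. For Yam1_1 and n-R5-8s1, Control 1 was the highest library and Prmt5 KO 1 the next. Unique reads of Rn18s-rs5 were 69.5 and 437 times those of n-R5-8s1 in Control and 56.1 and 517 times in Prmt5 KO. The mitochondrial ribosomal RNA mt-Rnr2, of the large subunit, had 1574 and 3187 CPM in Control against 1642 and 3174 CPM in Prmt5 KO, and mt-Rnr1, of the small subunit, 246 and 752 against 211 and 477 CPM. In both genes the library numbered 1 was the lower one in its group, and the groups overlapped. None of these 5 genes passed the test (log2 fold changes from -0.73 ± 0.65 for n-R5-8s1 to 0.02 ± 0.51 for mt-Rnr2, SE).

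Small RNA genes gave few reads. Mir6236 (chromosome 9, 110281287 to 110281409) had 107 and 65 unique reads in Control against 66 and 120 in Prmt5 KO, or 18.4 and 14.1 CPM in total reads against 3.95 and 21.5 CPM (a log2 fold change of -0.37 ± 0.77 SE, with adjusted p = 0.945). Prmt5 KO 1 was lowest and Prmt5 KO 2 highest, as for Rn18s-rs5. No other Mir gene had more than 2 unique reads over the 4 libraries, and 1031 of 1058 had no read. A mature sequence was found in RefSeq for 911 of them. The leucine tRNA gene of mitochondria, mt-Tl1, had 9 and 21 reads in Control against 20 and 20 in Prmt5 KO. Rn7sk, whose RNA restrains the elongation factor P-TEFb, had 19 and 15 total reads in Control against 157 and 24 in Prmt5 KO, but 14 and 4 unique reads against 21 and 3. Its total CPM was higher in both Prmt5 KO libraries, at 9.39 and 4.30 against 3.23 and 3.26 (a log2 fold change of 1.08 ± 0.93 SE, with adjusted p = 0.799). Rpph1, the RNA of ribonuclease P, had 7 and 4 reads in Control against 26 and 4 in Prmt5 KO and was too low to be tested. Genes of the proteins that make or bind such RNAs, such as the microRNA nuclease Drosha and the snoRNP methyltransferase fibrillarin (Fbl), were taken from a list of 32, of which 30 were tested. None was called by edgeR's quasi-likelihood test or by DESeq2, which called 0.115% and 1.6% of all tested genes. In edgeR 2 had an unadjusted p under 0.05, beside 8.99% of all tested genes. In DESeq2 3 did, where the share over all genes was not computed. The median log2 fold change of the list was -0.25, beside 0.00 over all 12135 tested genes. Drosha had 1451 and 1243 reads in Control against 7682 and 3664 in Prmt5 KO (log2 fold change 1.11, adjusted p = 0.363). The larger changes on this list lay on the lower side, in 2 protein genes of ribonuclease P, Rpp30 at -1.42 (adjusted p = 0.533) and Rpp38 at -1.53 (adjusted p = 0.591). In both, Control 2 was the high library, with 780 and 210 reads against 218 and 47 in Control 1.

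In the comparison of Prmt5 KO with Control, 1 of these genes was called, the ribosomal protein pseudogene Mrpl23-ps1. In edgeR's quasi-likelihood test over all genes with enough reads, 227 of the 15790 genes were tested, of which 0 were called higher and 1 lower at an adjusted p under 0.05. Over all 12135 tested genes 14 were called, 0.115%, with 5 higher, 0.0412%, and 9 lower, 0.0742%. Without scaling (0.00824% of all tested genes called) Mrpl23-ps1 was tested and not called. It was not tested with unique reads (0.0265%), where it was too low. With copies added to their genes (0.0834%) it was no longer a row of its own, so neither fit could call it. Together with Gm1966 it was called in DESeq2 (1.6% of all tested genes called), without a filter on low counts (0.854%), with the replicate number as a block (1.97%) and without Prmt5 KO 1 (4.07%). Of these genes it was the 1 called without Control 1 (1.2%) and without Control 2 (0.746%). An unadjusted p under 0.05 was reached by 6 of the 227 and by 8.99% of all tested genes. The 2 libraries of 1 group did not overlap those of the other for 72 of the 227, or 31.7%, below the 40.1% of all tested genes. Of the 72, 18 were higher and 54 lower, beside 21.2% and 18.9% of all tested genes. Of the 227, 66 had 10 or more reads in both libraries of 1 group only, so this count describes what was tested and not the 15790. Their median log2 fold change was -0.37, and it depended on Prmt5 KO 1: without that library it was 0.06, and without Prmt5 KO 2 it was -1.07. In limma-voom it was -0.68. It was -0.46 over the 138 genes described below as copies of a protein-coding gene and -0.15 over the other 89.

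Mrpl23-ps1 (chromosome 2, 74591330 to 74591909, minus strand) had 333 and 267 total reads in Control against 91 and 12 in Prmt5 KO. Scaled, that was 57.3 ± 0.97 CPM in Control and 3.80 ± 2.33 CPM in Prmt5 KO (SD, n = 2 each), with no overlap. This gave a log2 fold change of -3.85 ± 0.55 (SE) at an adjusted p of 0.0423. Nearly all of these reads were shared: the gene had 3 and 1 unique reads in Control against 2 and 0 in Prmt5 KO. Its parent gene Mrpl23 (chromosome 7, 142532799 to 142540747) had 155 and 268 total reads in Control against 897 and 582 in Prmt5 KO (a log2 fold change of 0.90 ± 0.47 SE, with adjusted p = 0.626). With the reads of both added, the pair had 82.0 and 107 unscaled CPM in Control against 67.3 and 101 in Prmt5 KO, which overlapped, and the log2 fold change of the sum was -0.27 ± 0.38 (SE, adjusted p = 0.893). The call on Mrpl23-ps1 was therefore present in the split of the pair's reads and not in their sum.

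**Figure D3:**
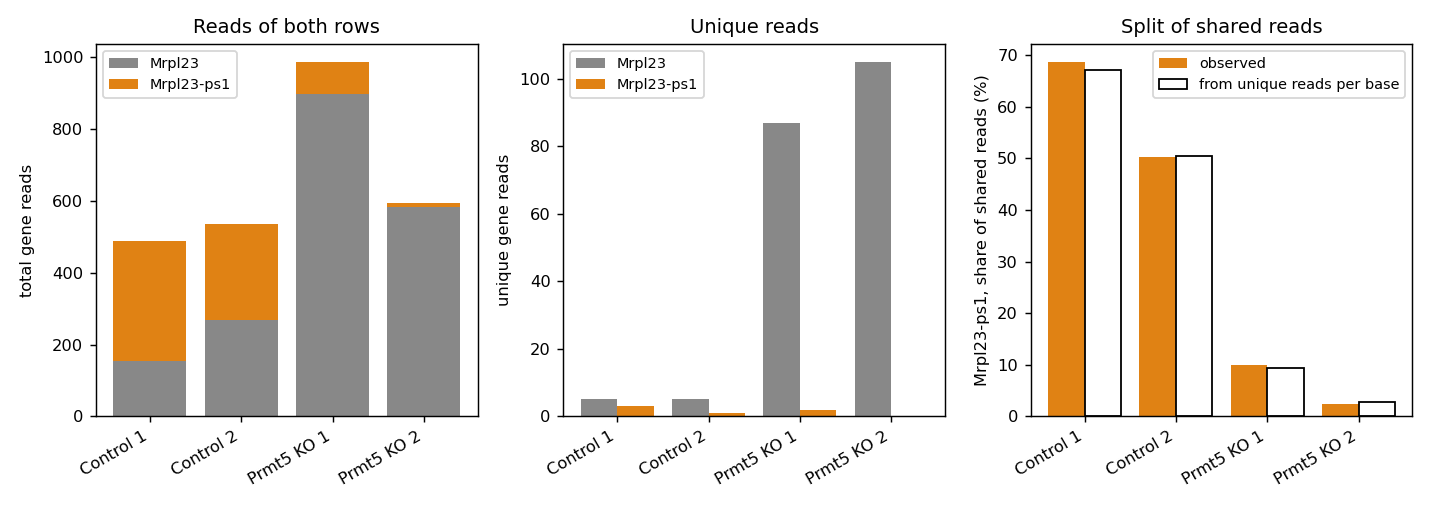
Total gene reads of Mrpl23 and Mrpl23-ps1 stacked (left), their unique gene reads (middle) and the percentage of the pair's shared reads listed for Mrpl23-ps1 (right, filled) beside the percentage that unique reads per base would give (open), for each of 4 libraries. The share of Mrpl23-ps1 goes from 68.8% in Control 1 to 2.45% in Prmt5 KO 2, and filled and open bars differ by less than 2 points.

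The rule by which the table divided shared reads is not stated, and the listed split was set beside one computed from unique reads. Of the reads shared by the pair, Mrpl23-ps1 received 68.8% and 50.3% in Control and 9.90% and 2.45% in Prmt5 KO. Unique reads, with 1 added, divided by the row's span for the copy and by the exon length of 1777 bases for Mrpl23 would give 67.1% and 50.5% in Control and 9.46% and 2.81% in Prmt5 KO. The unique reads of Mrpl23 were 5 and 5 in Control against 87 and 105 in Prmt5 KO, of which 12 and 10 in the latter lay in annotated exons, against 0 and 1 in Control. Most unique reads of Mrpl23 thus lay outside its annotated exons in both groups. For Rpl10a-ps1, identical to the ribosomal protein gene Rpl10a over 654 bases, total reads were 1876 and 1849 in Control against 163 and 1785 in Prmt5 KO. Prmt5 KO 1 stood alone, with 4.03% of the shared reads against 46.5% to 56.0% in the other libraries, and unique reads per base would give 3.75% against 46.3% to 56.6%. Rpl10a had 21 and 15 unique reads in Control, 460 in Prmt5 KO 1 and 24 in Prmt5 KO 2. Without Prmt5 KO 2, which leaves Prmt5 KO 1 as the lone library of its group, Rpl10a-ps1, Gm10275, Gm4294 and Gm10231 were called beside Mrpl23-ps1 (0.654% of all tested genes called), and these copy Rpl10a, Rpl12, Rpl15 and Atp5g2.

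**Figure D4:**
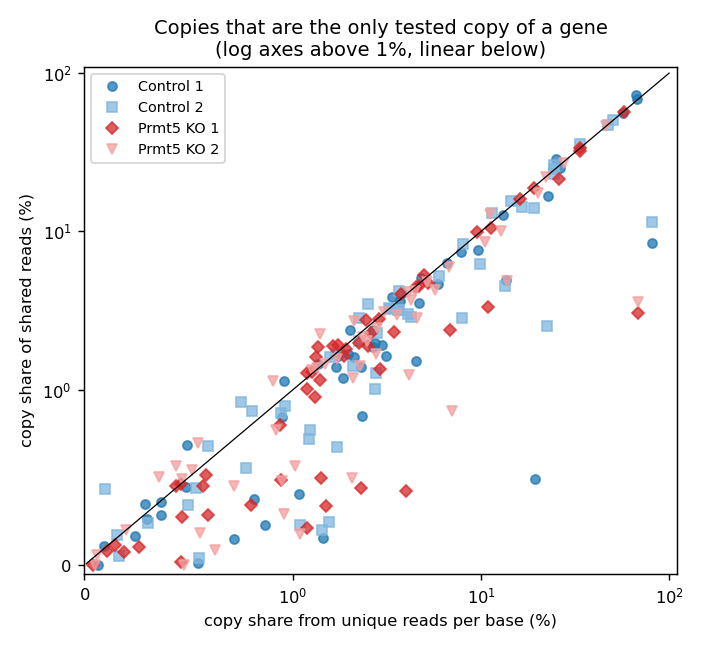
Percentage of the reads shared by a copy and its gene that the table lists for the copy (vertical axis), against the percentage expected from unique reads per base (horizontal axis), both log above 1% and linear below, for copies that are the only tested copy of their gene; each point is 1 copy in 1 of 4 libraries with at least 50 shared reads and the line marks equality. The points rise together (Spearman 0.91 over 208 points), and the median of listed minus expected share is -0.27 percentage points, below the line.

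Across the copies the listed and the computed shares were compared in the same way. Of the 227 tested genes, 140 matched a protein-coding transcript at 95% identity or more over 80% or more of their length, and for 138 the matching gene, 84 in all, was in the table. They included 67 copies of ribosomal protein genes, among them 6 of Rps6, 10 copies of the glycolytic gene Gapdh and 6 of Ppia, which encodes cyclophilin A. Unique reads made up 10.6% of total reads in the median copy and 87.4% in the median of the other 89 tested genes, and 38 copies had no unique read. For 55 copies that were the only tested copy of their gene, the listed and the computed share of shared reads had a Spearman correlation of 0.91 and a Pearson correlation of 0.77 over 208 copy and library points, with a median absolute difference of 0.45 percentage points. Over 137 copies, several of one gene included, the correlations were 0.66 and 0.81 over 534 points. Some single copies lay far from the computed share, such as Gm5566, with 8.45% listed against 81.2% computed in Control 1. The listed share was often lower than the computed one, with library medians of 0.51% to 0.78% against 1.56% to 2.32%. Points share libraries and genes, so these are descriptions, and the formula was chosen after the values were seen. With each copy's reads added to its gene, 0 of 84 sums were called in edgeR, beside 0.0834% of all tested genes in that fit. The genes together had 56135 to 83839 unscaled CPM in total reads against 1348 to 3462 for the copies. Most sums therefore say little of the copies, and the median log2 fold change was -0.32 for the sums and -0.28 for the genes alone. The copy and its gene had opposite signs of log2 fold change in 43 of 138 pairs.

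A run of mitochondrial gene copies on chromosome 1, from 24611535 to 24616197, had many reads and almost no unique ones. Gm10925, identical to mt-Atp6 of the ATP synthase over its match, had 1165 and 2962 total reads in Control against 4217 and 3565 in Prmt5 KO, of which 5, 7, 14 and 16 were unique. Gm28437, identical to mt-Co3 of cytochrome oxidase, had 831 and 1491 in Control against 1200 and 862 in Prmt5 KO. Gm10222, identical to mt-Nd4l of complex I, had 99 and 105 reads in Control against 122 and 56 in Prmt5 KO, with 1 unique read in all. At 16.8 and 22.8 CPM in Control against 7.29 and 10.04 CPM in Prmt5 KO it stood apart by group (a log2 fold change of -1.20 ± 0.58 SE, with adjusted p = 0.582), while its sum with mt-Nd4l had a log2 fold change of -0.14. Whether these reads came from the nuclear copies or the mitochondrial genome cannot be told apart for reads that match both.

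Among genes with mostly unique reads, 3 on chromosome 7 that resemble the interferon-inducible GTPase gene Gvin1 or its relative Gm4070 had lower means in Prmt5 KO to different extents, and none passed the threshold in edgeR's test. Gm1966 (106596743 to 106604035) had 210 and 198 reads in Control against 136 and 58 in Prmt5 KO, or 39.4 ± 5.16 CPM against 9.27 ± 1.61 CPM (SD, n = 2 each). Both Prmt5 KO libraries lay below both Controls, and the log2 fold change was -2.09 ± 0.47 (SE, adjusted p = 0.176). DESeq2, with an adjusted p of 0.0111, called it, and so did edgeR without a filter on low counts, with the replicate number as a block and without Prmt5 KO 1, at 0.0256 to 0.0398. Gm4759 (106417848 to 106424469), whose best match was Gm4070, had 24.7 and 40.0 CPM in Control against 6.58 and 25.3 CPM in Prmt5 KO, which overlapped (a log2 fold change of -1.04 ± 0.64 SE). Gm8995 (106504392 to 106511671) had 106 and 76.9 CPM in Control against 72.5 and 74.8 CPM in Prmt5 KO (a log2 fold change of -0.32 ± 0.33 SE), so its groups stood apart by less than their SD in Control. Gvin1 itself, a gene with exons, had 108 and 26 total reads in Control against 19 and 1 in Prmt5 KO (log2 fold change -4.02, adjusted p = 0.286), and Gm4070, also with exons, had 68 and 49 against 15 and 15 (-2.67, adjusted p = 0.418). Most reads of these 2 genes were shared, unlike those of the 3 above. Gvin1 had 13 and 2 unique reads in Control against 2 and 0 in Prmt5 KO. For Gm4070 they were 8 and 3 against 1 and 4.

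**Figure D5:**
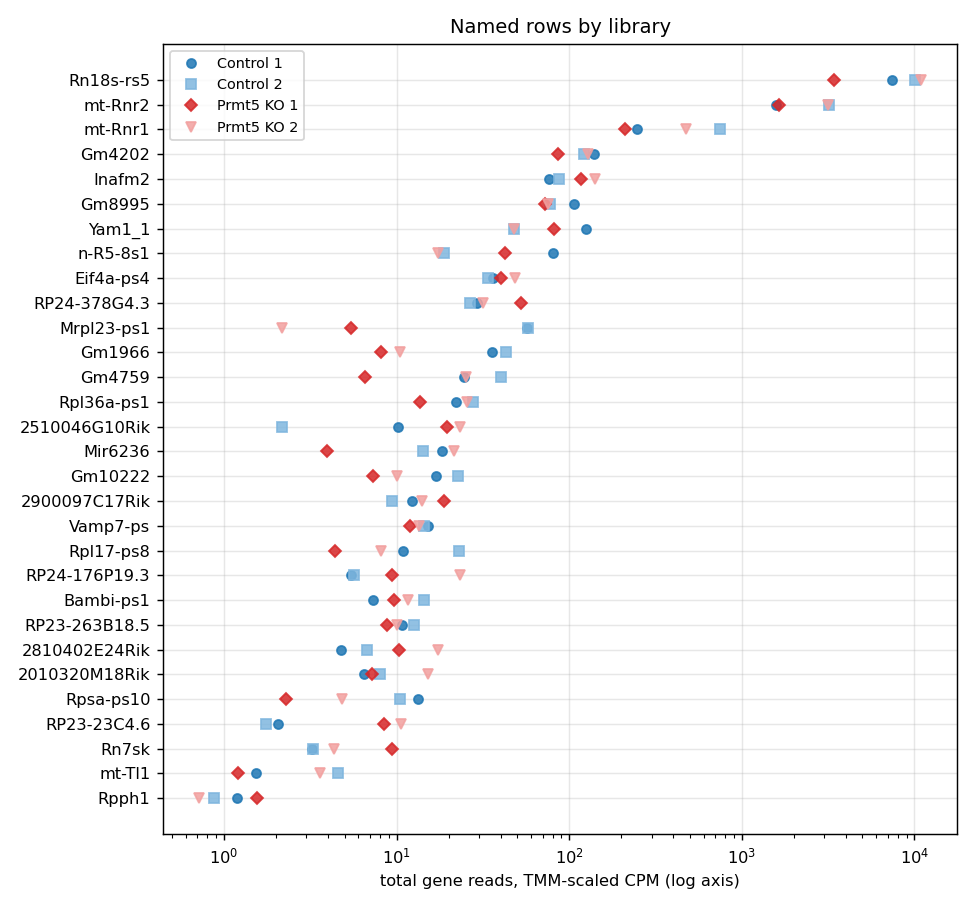
Total gene reads as TMM-scaled CPM (horizontal log axis) of the 30 genes named by rule, ordered by their mean, with 1 point for each of 2 Control and 2 Prmt5 KO libraries. Mrpl23-ps1 goes from 56.6 CPM in Control 1 to 5.44 CPM in Prmt5 KO 1, and the ribosomal RNA genes at the top overlap.

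Among genes averaging 5 unscaled CPM or more with groups apart, the 2 others with the smallest p on the lower side copied ribosomal protein genes. Rpsa-ps10 (chromosome 3) had 13.3 and 10.4 CPM in Control against 2.27 and 4.84 CPM in Prmt5 KO (a log2 fold change of -1.75 ± 0.81 SE, with adjusted p = 0.569), and Rpl17-ps8 (chromosome X), with no unique read, had 10.9 and 23.0 CPM against 4.37 and 8.07 CPM (-1.46 ± 0.70 SE, adjusted p = 0.576). With all 3 tested copies of each gene added, Rpsa and Rpl17 had log2 fold changes of -0.58 and -0.51. The genes alone had -0.57 and -0.49, so the sums say little of the copies. Eif4a-ps4, shown above, had 17, 11, 60 and 23 unique reads of 212, 155, 670 and 269 in the order Control 1, Control 2, Prmt5 KO 1 and Prmt5 KO 2, and at 36.1 and 33.7 against 40.1 and 48.3 CPM had a log2 fold change of 0.34 ± 0.38 (SE).

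On the higher side, none of the genes was called by edgeR or DESeq2. Of those averaging 5 unscaled CPM or more with groups apart, 2 of the 5 with the smallest p overlapped a protein-coding gene. Inafm2 (chromosome 2, 118745758 to 118748810), annotated as protein coding, had 76.0 and 87.8 CPM in Control against 117 and 141 CPM in Prmt5 KO, with nearly all reads unique (a log2 fold change of 0.66 ± 0.31 SE, with adjusted p = 0.576). RP23-23C4.6 (chromosome 6, 28211008 to 28214805) had 12 and 8 reads in Control against 141 and 59 in Prmt5 KO, or 2.04 and 1.74 CPM against 8.43 and 10.6 CPM (a log2 fold change of 2.32 ± 0.90 SE, with adjusted p = 0.474). 2510046G10Rik, antisense and overlapping Ccdc101 on chromosome 7, had 60 and 10 reads in Control against 328 and 129 in Prmt5 KO (1.77 ± 0.75 SE, adjusted p = 0.528), and Ccdc101 had a log2 fold change of -0.30. 2810402E24Rik, an antisense gene on chromosome 14, had 28 and 31 unique reads in Control against 173 and 97 in Prmt5 KO (1.27 ± 0.70 SE, adjusted p = 0.657). RP24-176P19.3 overlaps the start of Lef1, a transcription factor of T cell development, on chromosome 3, and had 5.44 and 5.65 CPM in Control against 9.45 and 23.3 CPM in Prmt5 KO (1.55 ± 0.71 SE, adjusted p = 0.565). Lef1 had a log2 fold change of 1.57 (adjusted p = 0.209), and without stated strand the reads of the overlap cannot be told apart.

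Phtf1os, an antisense gene that overlaps Phtf1 and Rsbn1 on chromosome 3 (103964536 to 103968581), was chosen after its values were seen. It had 0 reads in both Controls and 55 and 31 in Prmt5 KO, of which 38 and 25 were unique. Against a floor of 3 reads over the Control group it was at least 13.5-fold higher in Prmt5 KO. It was not called by edgeR (adjusted p = 0.272), where only the Prmt5 KO reads brought it into the test. Fold and p-value both come from the values seen before the gene was chosen, so they describe it and do not test it. Phtf1 and Rsbn1 had log2 fold changes of 0.55 and 0.33. As the strand setting is not given, reads of Phtf1os cannot be separated from theirs where the genes overlap.

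The remaining genes were named for their level. The pseudogene Vamp7-ps had 15.1 and 14.3 CPM in Control against 11.9 and 13.5 CPM in Prmt5 KO, all from unique reads, and Bambi-ps1, also unique, had 7.31 and 14.3 CPM against 9.69 and 11.7 CPM. Gm4202, a copy of the 14-3-3 gene Ywhaz, had 139 and 121 CPM in Control against 85.7 and 129 CPM in Prmt5 KO. Among Rik and clone-named genes, 2900097C17Rik had 12.2 and 9.34 CPM in Control against 18.8 and 14.0 CPM in Prmt5 KO, and RP24-378G4.3 had 29.2 and 26.7 against 52.3 and 31.6 CPM, both without overlap (log2 fold changes of 0.61 ± 0.58 and 0.59 ± 0.42 SE). 2010320M18Rik, at 6.46 and 8.04 against 7.23 and 15.2 CPM, overlapped between groups (0.62 ± 0.73 SE). RP23-263B18.5 stood at 10.7 and 12.6 against 8.79 and 10.04 CPM, without overlap (-0.31 ± 0.64 SE). Rpl36a-ps1, another ribosomal protein copy, had 22.1 and 27.6 against 13.6 and 25.5 CPM, which overlapped.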

How the data were processed

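RNA-seq libraries of 4 samples, 2 titled Control and 2 titled Prmt5 KO, were analysed. The authors deposited 1 table of unnormalized read counts per gene, as unique and total gene reads. Reads were single and trimmed, per the file headers. Per the submitters' processing notes, coordinates are on mm10 and edgeR was among the tools. The sources used here do not give the mapper, the annotation, the use of strand or the rule for placing shared reads. Rows with an exon length of 0 were kept, without T cell receptor rows, and classed by symbol. Starts have 1 added to the table's value.

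Total gene reads of all rows passed filterByExpr and TMM scaling before edgeR 4.0.16 (R 4.3.3) ran its quasi-likelihood test on group alone. P-values were adjusted over 12135 rows by the Benjamini-Hochberg method, and those under 0.05 were called. Each SE is the coefficient divided by the root of F. In a simulation of all 12135 rows with 200 changed, the test called 52% to 54% of rows changed 4-fold and 84% to 88% of those changed 16-fold, with 12 false calls. Counts were drawn from means and spread fitted to these same rows, and the split of shared reads was not simulated. These percentages were not computed for the 227 tested genes alone. Tested genes were compared with protein-coding transcripts of GENCODE M21 by blastn 2.17.0. Alternatives were unique reads, other scalings, no filter, DESeq2 1.42.0, limma 3.58.1, the replicate number as a block, leaving out each library, and, chosen after the data were seen, adding copies to their genes.

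Named genes were every gene past the threshold and up to 4 per class with the highest unique CPM (at least 1). Added per direction were the 5 with the smallest p among genes averaging 5 unscaled CPM or more in total reads, with groups not overlapping. The genes and lists were chosen with earlier results of these data known. One read was worth 0.0681 to 0.200 unscaled CPM. Intervals and floors cover counting error only, as there were no molecular identifiers and PCR copies are not independent molecules.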

Additional observations from a re-analysis of the deposited data

How the results depend on the processing

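The number of genes called was 1 and lay between 0 and 5. It was 0 with unique reads, where Mrpl23-ps1 was too low to be tested, and 0 without scaling beyond library size (log2 fold change -3.67, adjusted p = 0.0945). With copies added to their genes, an alternative chosen after the data were seen, Mrpl23-ps1 was no row of its own and the number was 0. It was 2 without a filter on low counts and 2 in DESeq2, and 1 to 5 when each library was left out. A lone remaining library was assumed to vary like the other group. Over all genes, the count of 14 became 194 in DESeq2, 226 without a filter, 3 with unique reads, 1 without scaling and 90 to 518 with each library left out. The median of all genes moved to 0.14 without scaling. With the replicate number as a block, 2 of the genes and 239 of all genes were called. The correlation of deviations between same-numbered libraries was 0.155 in both pairs, equal by construction with 2 libraries a group. This does not show whether the numbers pair the libraries, and the labels state no pairing, so they were treated as sharing only a number.

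Genes expressed numbered 48 at 5 CPM, 84 with all 4 libraries required and 358 in total reads, against 173. In that order the counts were 23, 43 and 215 for Gm, 3, 7 and 64 for -ps, and 0, 0 and 5 for other small RNAs. Genes with other symbols gave 9 at 5 CPM and 16 in all 4 libraries, Rik genes 8 and tRNA genes 0 at 5 CPM, and Snor and Scarna genes 0 under each of the 3. The Rik difference of 46.0 unscaled CPM was 29.9 without its top gene, 31.9 without overlapping genes and 39.4 to 52.7 with each library left out. For other symbols, 76.2 became 20.6 without the top gene (54.9 to 97.4). For Snor and Scarna, 0.39 became 0.82 in unique reads, 0.71 without overlapping genes and -0.48 without Snord22 (0.27 to 0.51). Of the partner list 1 of 31 tested genes was called without a filter, where 0.854% of all tested genes were called. With each library left out, the list's median log2 fold change ranged from -0.27 to -0.16.

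Signs of uncalled log2 fold changes turned with libraries left out, over ranges of -1.40 to 0.34 for Rn18s-rs5, -2.09 to 0.41 for Mir6236, -0.92 to 0.043 for Rpl36a-ps1, -1.38 to 0.60 for mt-Tl1, -0.43 to 0.52 for Bambi-ps1, -0.58 to 0.59 for mt-Rnr2, -0.048 to 1.08 for 2010320M18Rik, -0.99 to 0.42 for Yam1_1, -1.52 to 0.66 for n-R5-8s1 and -1.29 to 0.46 for mt-Rnr1. Bambi-ps1 also turned without scaling (0.12), in limma-voom (0.044) and under the block (0.054). The cause was not tested.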
